A study of Mus musculus with 15 samples.

Results

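The genes described are Lcn2, Saa1, Retnlb and 5 members of the regenerating (Reg) family, Reg1, Reg3a, Reg3b, Reg3g and Reg4, which encode secreted defence proteins of the gut lining. They were chosen by name as antimicrobial and acute-phase genes of this epithelium, with earlier results of these data known. All 8 were measured, among 19938 genes in all. RNA came from epithelial cells of the small intestine of wild-type BALB/c mice aged 10 weeks, detached with 30 mM EDTA for 10 min. The arrays fall into 5 groups of 3: untreated controls, and mice injected intraperitoneally 2 times a day with a GST-RANKL fusion protein for 1, 2, 3 or 4 days. RANKL, a cytokine of the TNF family, acts through its receptor RANK and induces M cells, a specialised epithelial type that samples particles and microbes from the lumen. A group given GST or injections alone was not analysed here, so effects of RANKL, of GST and of the injections cannot be told apart. The labels do not state that replicate arrays represent separate mice, so p-values describe only the spread among these 15 samples, which may be technical.

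Lcn2 encodes lipocalin 2, which binds bacterial siderophores and so withholds iron from bacteria. Reg3b and Reg3g encode C-type lectins that bind and kill bacteria near the mucosal surface, and Reg3a encodes a close relative. Reg1 encodes a related lectin, and Reg4 encodes a more distant family member known from enteroendocrine and goblet cells. Saa1 encodes serum amyloid A1, an acute-phase protein, and Retnlb encodes RELM-beta, a goblet cell product. In the gut these genes are known to answer to bacterial contact, with interleukin 22 acting through STAT3 on the Reg3 and Saa genes, interleukin 17 acting through IkB-zeta and C/EBP factors on Lcn2, and interleukins 4 and 13 acting on Retnlb.

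All levels are log2 intensities after quantile normalization, and changes are differences of group means on that scale. The deposited median intensity per array ran from 147 to 167. Replicate 2 of RANKL day 1 had the highest median and the narrowest interquartile range of its log2 values, 1.95 against 2.26 to 2.55 on the other arrays. The 5 Y-chromosome genes taken as a mark of background read 4.88 to 5.50. The sixth such gene measured, Sry, read 7.85 to 8.79 and was set aside after its values were seen, and Xist read at least 11.93. M cell markers responded on every day: 11, 12, 12 and 10 of 12 were called higher on RANKL days 1, 2, 3 and 4. Of all genes 2, 1.52, 1.72 and 0.818% were called higher on these days. None of 8 general epithelial markers was called on any day.

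The sequences before the transcript starts are shown because 4 of the members varied widely between arrays while others did not, and because known regulators of the family act through short DNA motifs. RefSeq (build GRCm38.p6) gave a window of 250 bases for 7 of the 8 members, all but Retnlb. Reg3b, Reg3a, Reg1 and Reg3g lie with Reg2 and Reg3d within 98.0 kb of chromosome 6. In the lines below capitals mark motif matches, and the windows run 5′ to 3′ towards the start.
Lcn2: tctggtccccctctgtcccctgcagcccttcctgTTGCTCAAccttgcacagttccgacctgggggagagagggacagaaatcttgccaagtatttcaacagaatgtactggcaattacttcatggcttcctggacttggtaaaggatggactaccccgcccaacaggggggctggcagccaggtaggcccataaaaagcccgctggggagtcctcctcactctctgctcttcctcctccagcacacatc
Reg3a: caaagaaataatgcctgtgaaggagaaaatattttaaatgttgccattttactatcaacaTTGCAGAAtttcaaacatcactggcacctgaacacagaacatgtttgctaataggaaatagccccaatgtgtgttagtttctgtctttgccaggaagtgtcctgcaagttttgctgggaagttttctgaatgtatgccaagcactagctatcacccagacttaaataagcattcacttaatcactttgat
Saa1: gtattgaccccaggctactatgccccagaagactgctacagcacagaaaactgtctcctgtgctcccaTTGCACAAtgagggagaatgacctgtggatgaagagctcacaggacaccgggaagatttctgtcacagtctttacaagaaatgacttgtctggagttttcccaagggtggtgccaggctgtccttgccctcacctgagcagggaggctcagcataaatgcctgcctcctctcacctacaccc
Reg3b: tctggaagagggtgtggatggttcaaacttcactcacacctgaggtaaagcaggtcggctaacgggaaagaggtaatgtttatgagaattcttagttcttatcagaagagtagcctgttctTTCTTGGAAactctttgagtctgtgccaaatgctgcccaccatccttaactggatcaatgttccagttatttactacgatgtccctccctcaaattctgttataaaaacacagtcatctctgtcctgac
Reg3g: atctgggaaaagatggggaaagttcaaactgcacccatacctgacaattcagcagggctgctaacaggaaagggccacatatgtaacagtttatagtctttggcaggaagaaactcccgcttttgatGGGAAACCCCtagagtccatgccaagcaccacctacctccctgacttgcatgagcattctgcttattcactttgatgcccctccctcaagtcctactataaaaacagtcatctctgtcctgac
Reg4: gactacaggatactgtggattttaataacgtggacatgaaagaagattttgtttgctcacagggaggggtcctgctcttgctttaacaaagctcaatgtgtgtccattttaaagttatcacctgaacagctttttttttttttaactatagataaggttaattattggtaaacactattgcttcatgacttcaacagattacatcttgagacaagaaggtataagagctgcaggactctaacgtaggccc
The windows are chr2:32387740-32387989 on the minus strand for Lcn2, chr6:78380459-78380708 on the plus strand for Reg3a, chr7:46742981-46743230 on the minus strand for Saa1, chr6:78370635-78370884 on the plus strand for Reg3b, chr6:78468875-78469124 on the minus strand for Reg3g, and chr3:98221906-98222155 on the plus strand for Reg4. For Saa1 and Reg4 the transcript start used lies inside the annotated gene.

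Both strands of each window were searched for 4 motifs. The C/EBP motif TTGCNNAA was found 216 to 209 bases before the start of Lcn2, 190 to 183 before that of Reg3a and 182 to 175 before that of Saa1, which makes 3 of 7 members against 9.56% of 32851 RefSeq windows of the same length. The STAT motif TTCNNNGAA occurred in Reg3b, 129 to 121 bases before the start (7.02% of all windows). The NF-kB consensus occurred in Reg3g, 123 to 114 bases before the start (7.25% of all windows), and the AP-1 motif TGANTCA in Reg1 (6.75%). None of the 4 was in the Reg4 window, which says only that these letters are not there. In global alignments with gaps, identical bases made up 69.2% of the window for Reg3b and Reg3g, against 41.6 to 56.4% for the other pairs of members. The share that unrelated windows reach in such alignments was not computed. These matches describe the letters and do not show that a factor binds.

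Lcn2 was the member that rose with RANKL. Its level was 6.999, 6.81 and 6.82 in the control arrays, 8.27, 7.36 and 8.10 on day 1, and 9.28, 9.28 and 10.39 on day 2. On day 3 it was 9.09, 10.55 and 10.40, and on day 4 it was 7.33, 8.01 and 7.78. All 12 RANKL arrays lay above all 3 control arrays, a separation upwards that 1.92% of all genes showed. Lcn2 (probe set 10481627) lies at chr2:32384637-32387739 in GRCm38.

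The change in Lcn2 against control was 1.04 ± 0.38 on day 1 (SE, 3 arrays per group; limma adjusted p = 0.180), which did not pass the threshold of 0.05. On day 2 Lcn2 rose by 2.77 ± 0.38 (6.84-fold, limma adjusted p = 0.000945). On day 3 it rose by 3.14 ± 0.38 (8.81-fold, limma adjusted p = 0.0004004). On day 4 the difference was 0.83 ± 0.38 and was not called (limma adjusted p = 0.507). Group means were 7.71 ± 0.35 on day 4 and 6.88 ± 0.11 in controls (SD, n = 3 each). With the 4 RANKL days pooled, Lcn2 rose by 1.95 ± 0.30 (3.85-fold, limma adjusted p = 0.00189). The calls on days 2 and 3 were kept under every alternative tried, and the day 2 change ran from 2.40 to 2.96 with single arrays left out.

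**Figure D1:**
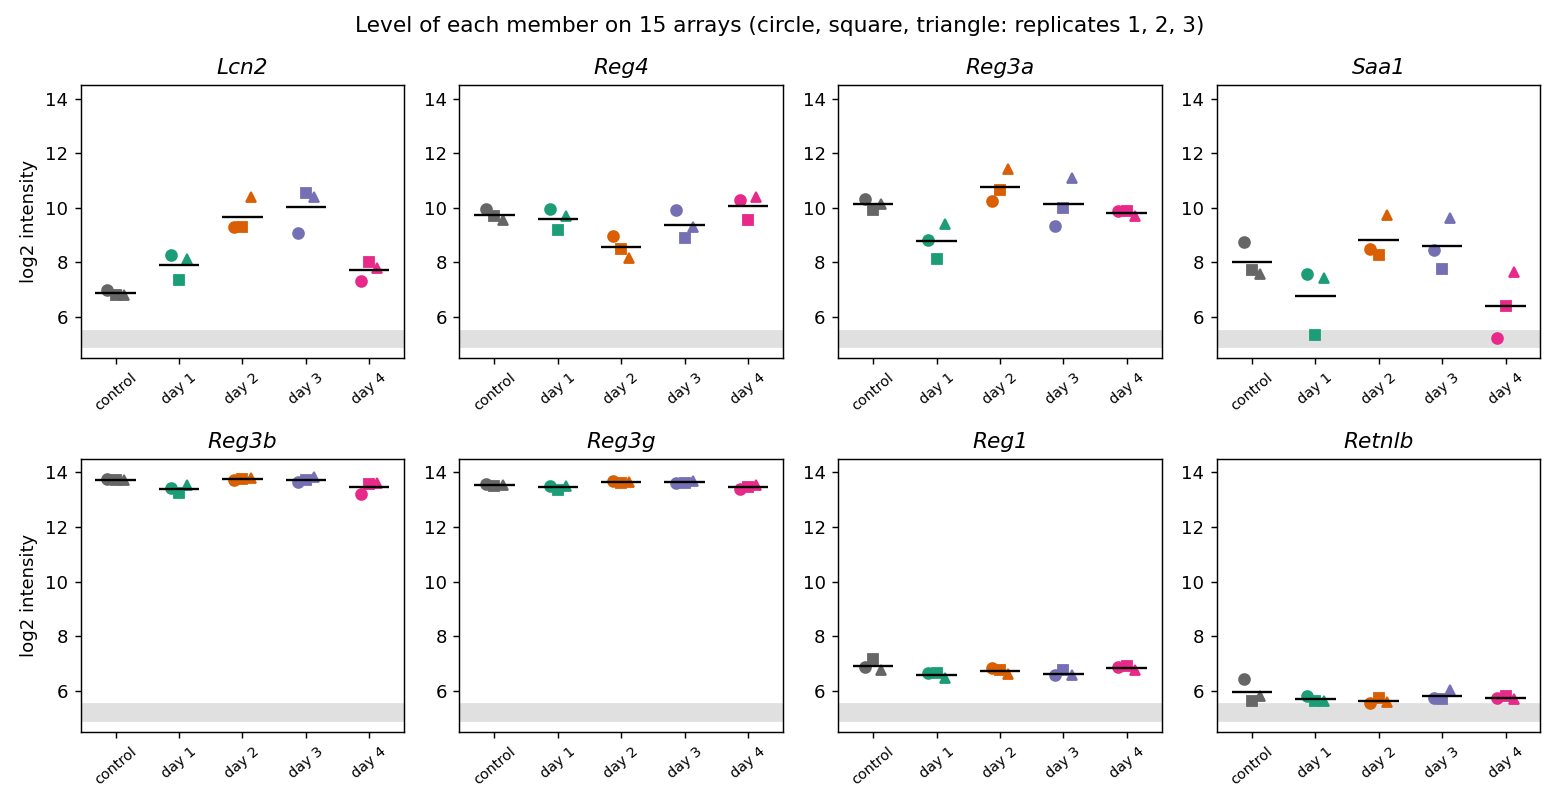
Log2 intensity of the 8 genes (vertical axes) in controls and after 1, 2, 3 and 4 days of RANKL (horizontal axes), with circle, square and triangle for replicates 1, 2 and 3, a black line for the group mean, and a grey band for the background read by 5 Y-chromosome genes (4.88 to 5.50). The 12 RANKL arrays of Lcn2 lie above its 3 controls, while Reg3b and Reg3g stay between 13.22 and 13.82 on all arrays.

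Between RANKL days, Lcn2 was higher on day 3 than on day 1 by 2.10 ± 0.38 (limma adjusted p = 0.0322), a call lost in 10 of 25 alternatives. It was lower on day 4 than on day 2 by 1.94 ± 0.38 on the log2 scale (3.84-fold lower, limma adjusted p = 0.0313), a call lost in 6 of 25. The arrays whose omission ended the first call were day 1 replicates 1 and 2, day 3 replicates 2 and 3, day 4 replicate 3 and control replicates 2 and 3, and those that ended the second were the 3 of day 2 and day 4 replicates 1 and 3. Lcn2 was 1 of the 0.186% of all genes called higher on day 3 than on day 1, and 1 of the 0.236% called lower on day 4 than on day 2. Its difference between day 4 and day 3, -2.31 ± 0.38, was the most negative of all 19938 genes but was not called (limma adjusted p = 0.0812), and 0.015% of genes were. It was called without day 1 replicate 2, day 2 replicate 3 or day 3 replicate 1, with adjusted p-values of 0.0383, 0.0493 and 0.0104. The day 2 and day 3 means did not differ beyond their spread (0.37 ± 0.38, limma adjusted p = 0.999).

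Markers of other cells were read beside Lcn2, since neutrophils also carry it. The log2 of the summed intensity of 12 M cell markers ran from 11.35 to 11.46 in controls, 13.54 to 13.79 on day 1, 14.03 to 14.18 on day 2, 13.49 to 14.04 on day 3 and 12.80 to 13.38 on day 4. The sum lay above all controls on every array of each RANKL day, as Lcn2 did. The part of M cells in the Lcn2 rise was not tested. Of 15 neutrophil and myeloid markers, 1 was called higher on day 2 (Itgam, an integrin subunit of myeloid cells, 0.99, limma adjusted p = 0.00418) and 1 lower on day 1 (Csf1r, the macrophage growth factor receptor gene, a call lost without 11 single arrays). The neutrophil genes S100a8 and Ly6g were little above background, with means of 5.92 to 6.05 and 5.90 to 6.05 on the RANKL days, against 5.89 and 5.93 in controls. S100a8 lay above all controls on days 2 and 3, as 8.09% and 12.3% of all genes did. S100a9 lay above all controls on days 1, 2 and 3, as 6.08%, 8.09% and 12.3% of all genes did. Its means were 6.70, 6.74, 6.68 and 6.52 on days 1, 2, 3 and 4, against 6.47 in controls. Of the 15 markers, 4, 10, 12 and 11 had positive differences on these days, with medians of -0.09, 0.07, 0.13 and 0.03. Among all genes 9606, 8638, 9339 and 10384 of 19938 were positive. The summed level of the 15 markers ran from 11.46 to 11.91 on the RANKL arrays and from 11.64 to 11.74 on the control arrays. Bright genes weigh most in this sum, so it says little about S100a8 and S100a9. In controls Lyz2 had a mean of 10.49, against 5.89 for S100a8 and 6.47 for S100a9. In bulk RNA, more cells of a type and more RNA per cell cannot be told apart.

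Reg4 moved the other way on day 2. Its level was 9.96, 9.71 and 9.55 in the control arrays, 9.94, 9.18 and 9.69 on day 1, and 8.96, 8.51 and 8.18 on day 2. On day 3 it was 9.91, 8.88 and 9.30, and on day 4 it was 10.27, 9.54 and 10.38. The 3 arrays of day 2 lay below all controls, as in 9.44% of all genes, while those of the other days overlapped them. Reg4 (probe set 10494636) lies at chr3:98222138-98236748 in GRCm38.

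On day 2 Reg4 fell by 1.19 ± 0.29 on the log2 scale (2.28-fold lower; SE, 3 arrays per group; limma adjusted p = 0.0472). That call was lost in 14 of 25 alternatives, with changes between -1.40 and -1.001 and limma adjusted p-values up to 0.171. Of these, 9 left out a single array (control replicate 1, 2 or 3, day 1 replicate 3, day 2 replicate 2 or 3, day 3 replicate 3, or day 4 replicate 1 or 3). The changes on days 1, 3 and 4 were -0.13, -0.38 and 0.32 and were not called (limma adjusted p = 0.907, 0.606 and 0.790). Reg4 was higher on day 4 than on day 2 by 1.51 ± 0.29 (2.85-fold, limma adjusted p = 0.0297), as were 0.487% of all genes. That call was lost in 6 of 25 alternatives, among them leaving out day 2 replicate 2 or 3 or day 4 replicate 1 or 3, with adjusted p-values up to 0.171.

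Markers of the cells known to carry Reg4 were read beside it. Of 14 enteroendocrine markers none was called on day 2, and 4 were called higher on day 4 against control (0.818% of all genes), a comparison in which Reg4 was not called. They were Cck (1.25, limma adjusted p = 0.000305), the gene of cholecystokinin, Gcg (1.03, limma adjusted p = 0.0156), the proglucagon gene, Neurod1 and Chgb, of which the call of Cck held without each array in turn. The log2 summed level of the 14 ran from 12.80 to 12.99 in controls, 12.72 to 12.91 on day 2 and 13.40 to 13.47 on day 4. Between day 4 and day 2, where Reg4 was called, 3 of the 14 were called higher, against 0.487% of all genes. The median difference of the 14 was 0.49, against 0.03 for all genes.

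Of 8 genes listed as goblet cell markers, the chemokine gene Ccl6 was called higher on days 2, 3 and 4, by 0.49 to 0.75. Its day 2 call was lost with median centring (limma adjusted p = 0.0855), and which cells gave its rise was not tested. On day 2 against control the other 7 goblet markers had negative differences, none called, and the median of the 8 was -0.15. Of 10 Paneth cell markers 7 had negative differences on day 2, with a median of -0.41. The lysozyme gene Lyz1 was the 1 called, and fell by 0.44 on the log2 scale, a call lost without 12 single arrays. Between day 4 and day 2 all 8 goblet and all 10 Paneth markers had positive differences, with medians of 0.22 and 0.32 and none called, where 12052 of 19938 genes were positive. The part of these cells in the Reg4 values was not tested.

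Across the 8 members the counts against control were therefore small. On day 1 none was called (3.94% of all genes were). On day 2 Lcn2 was called higher and Reg4 lower, 1 of 8 each, against 1.52% and 1.05% of all genes. On day 3 Lcn2 alone was called higher, against 1.72% of all genes, and on day 4 none was called, against 0.908%. With the 4 days together Lcn2 alone was called higher, against 2.38%. The median change of the 8 was -0.30, 0.07, 0.00 and -0.15 on days 1, 2, 3 and 4, where all genes had -0.01, -0.02, -0.01 and 0.01. An F test over the 4 comparisons called Lcn2 alone (limma adjusted p = 0.000757, 3.6% of all genes), with Reg4 next (limma adjusted p = 0.0511).

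**Figure D2:**
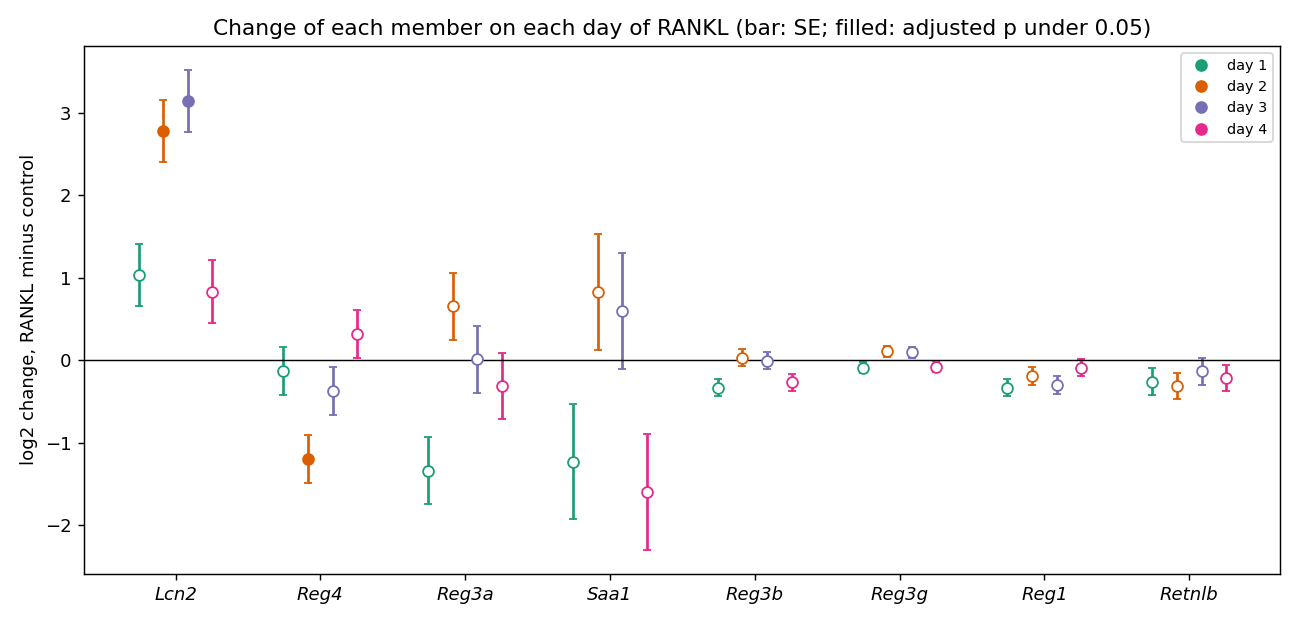
Log2 change in intensity, RANKL minus control (vertical axis), for each gene on days 1, 2, 3 and 4, with bars of 1 SE and filled points where the limma adjusted p was under 0.05. The filled points are Lcn2 on days 2 and 3 (2.77 and 3.14) and Reg4 on day 2 (-1.19).

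Reg3a had its lowest values on day 1. Its level was 10.30, 9.93 and 10.15 in the control arrays, 8.81, 8.14 and 9.42 on day 1, and 10.26, 10.64 and 11.43 on day 2. On day 3 it was 9.32, 9.99 and 11.10, and on day 4 it was 9.87, 9.89 and 9.69. The arrays of days 1 and 4 lay below all controls, as in 8.51% and 6.16% of all genes on these days. In the deposited intensities those of day 4 overlapped the controls (1015.02 in day 4 replicate 2 against 969.765 in control replicate 2). Of the day 2 arrays 2 lay above all controls, and the day 3 arrays fell on both sides. The day 1 change of -1.34 ± 0.40 was not called (SE, 3 arrays per group; limma adjusted p = 0.0930), and without replicate 2 of day 1 it was -1.01 (limma adjusted p = 0.207), while without day 3 replicate 3 it was called (limma adjusted p = 0.0384). The difference between day 2 and day 1 was 1.99 ± 0.40 and was not called (limma adjusted p = 0.0842), though it was without day 3 replicate 1 or 3 (limma adjusted p = 0.0461 and 0.0323). Reg3a (probe set 10539186) lies at chr6:78380709-78383839 in GRCm38.

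Saa1 had the widest range and the widest spread within groups of the 8 genes. Its level was 8.73, 7.73 and 7.57 in the control arrays, 7.56, 5.36 and 7.43 on day 1, and 8.48, 8.27 and 9.75 on day 2. On day 3 it was 8.44, 7.76 and 9.64, and on day 4 it was 5.21, 6.39 and 7.64. The values of 5.36 and 5.21 lie within the background band, so replicate 2 of day 1 and replicate 1 of day 4 had Saa1 not above background. Its spread within groups was larger than that of 99.97% of genes, and Reg3a, Lcn2 and Reg4 followed at 99.6%, 99.4% and 98.4%.

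No change in Saa1 against control was called. It was -1.23 ± 0.70 on day 1 and -1.59 ± 0.70 on day 4 (SE, 3 arrays per group; limma adjusted p = 0.481 and 0.492), and 0.82 and 0.60 on days 2 and 3. Without replicate 2 of day 1 the day 1 change was -0.52, and without replicate 1 of day 4 the day 4 change was -0.99. Its difference between day 4 and day 2, -2.42 ± 0.70, was not called (limma adjusted p = 0.202) and was -1.81 without replicate 1 of day 4. Saa1 (probe set 10563611) lies at chr7:46740497-46743181 in GRCm38.

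Reg3b and Reg3g, the bactericidal lectins, were bright on every array and moved little. Reg3b had deposited intensities of 9467 to 15131 and Reg3g of 10382 to 13512, where the highest value of any probe set was 24106.7. Whether the probes respond in proportion at such intensities was not tested. Reg3b read 13.75, 13.73 and 13.71 in the control arrays, 13.43, 13.22 and 13.54 on day 1, and 13.22, 13.56 and 13.62 on day 4. Those of days 1 and 4 lay below all controls, as in 8.51% and 6.16% of all genes on these days, and those of days 2 and 3 lay between 13.63 and 13.82.

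The changes in Reg3b were -0.33 ± 0.10 on day 1 and -0.26 ± 0.10 on day 4, neither called (SE, 3 arrays per group; limma adjusted p = 0.104 and 0.413). Without day 4 replicate 1 the day 1 change was called (limma adjusted p = 0.0440). Reg3g read 13.58, 13.50 and 13.54 in the control arrays, 13.49, 13.36 and 13.50 on day 1 and 13.69, 13.62 and 13.64 on day 2. On days 3 and 4 Reg3g lay between 13.61 and 13.69 and between 13.38 and 13.54. Its changes ran from -0.09 to 0.11 and none was called. Reg3g on days 2 and 3 lay above all controls, a separation upwards that 8.09% and 12.3% of all genes showed on those days. On day 4, where 12.1% of all genes lay above all controls, Lcn2 was the 1 member that did. The spread of Reg3g within groups stood at the 5.91 percentile of all genes. Reg3b (probe set 10539179) lies at chr6:78370885-78373466 and Reg3g (probe set 10545569) at chr6:78466269-78468874 in GRCm38, and cross-hybridisation between transcripts of this family, or between those of Saa1 and Saa2, was not tested.

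Reg1 ranged from 6.46 to 7.16 and Retnlb from 5.56 to 6.42, the second of these just above the background band. Reg1 had differences from control of -0.33, -0.19, -0.30 and -0.09 on days 1, 2, 3 and 4, and no change was called (limma adjusted p = 0.111, 0.553, 0.164 and 0.841). On day 3 its arrays lay below all controls, as in 9.9% of all genes. Retnlb, whose highest value belonged to control replicate 1, had differences of -0.26, -0.31, -0.14 and -0.21, and none was called. Reg1 (probe set 10539200) lies at chr6:78425983-78428668 and Retnlb (probe set 10436087) at chr16:48816856-48818892 in GRCm38.

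On day 1, 4 of 8 members (Reg1, Reg3a, Reg3b and Saa1) lay below all controls without overlap, and 8.51% of all genes did. For Saa1 this rests on a near tie, 7.565 in day 1 replicate 1 against 7.5653 in control replicate 3. In the deposited intensities of these 2 arrays the order was the other (190.939 against 189.861), so there Saa1 overlapped the controls. Reg1 overlapped them as deposited too, at 117.252 in day 1 replicate 2 against 108.86 in control replicate 3. Lcn2 was the 1 member that lay above, and 6.08% of all genes did. At an unadjusted p under 0.05, 1 member was higher and 3 lower on day 1, where 6.29% and 8.65% of all genes passed. Between day 2 and day 1, Lcn2, Reg3a, Reg3b, Reg3g and Saa1 were higher and Reg4 lower at that level, 6 of 8, where 4.11% of all genes were higher and 2.86% lower. Between day 4 and day 2, Reg4 was higher and the other 5 were lower, where 6.88% of all genes were higher and 2.18% lower. These comparisons share the day 2 arrays, and several of these members varied together over the arrays, so the members counted are not independent. After adjustment over all genes none of the 8 was called between day 2 and day 1 (0.201% of all genes), day 3 and day 2 (0% by limma, with 961 genes at an unadjusted p under 0.05) or day 4 and day 1 (1.32%). Same-numbered arrays of days 1 and 2 deviated together (r = 0.38, 0.15 and 0.39), and with the replicate number as a block Reg3a and Reg4 were called between day 2 and day 1 (1.99 and -1.06, limma adjusted p = 0.0365 and 0.0464).

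No pair of neighbouring group means was called for any of the 8 genes when the 5 groups were put in order of level. Lcn2 ran lowest in controls, then days 4, 1, 2 and 3. Reg4 ran lowest on day 2, then day 3, day 1, controls and day 4. Differences between groups held 88.4% of the variance of Lcn2, 74.0% of Reg3g, 70.1% of Reg4, 67.3% of Reg3b and 66.1% of Reg3a. They held 58.7% for Saa1, 57.0% for Reg1 and 27.3% for Retnlb. With 3 arrays per group, part of such a share arises from the spread within groups alone.

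The members varied together in part. Over the 15 arrays Pearson's r was 0.92 between Reg3g and Saa1, 0.89 between Reg3b and Saa1, and 0.88 between Reg3b and Reg3g. For deviations from the group means these became 0.85, 0.81 and 0.84. Without replicate 2 of day 1 and replicate 1 of day 4, where Saa1 was lowest, the correlations with Saa1 were 0.82 for Reg3g and 0.71 for Reg3b. Lcn2 and Reg3a had r = 0.49 over arrays and 0.75 for deviations, and Lcn2 and Reg4 had r = -0.65 and -0.46. The arrays share groups of 3 and a common scaling, so these values describe these 15 arrays only.

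**Figure D3:**
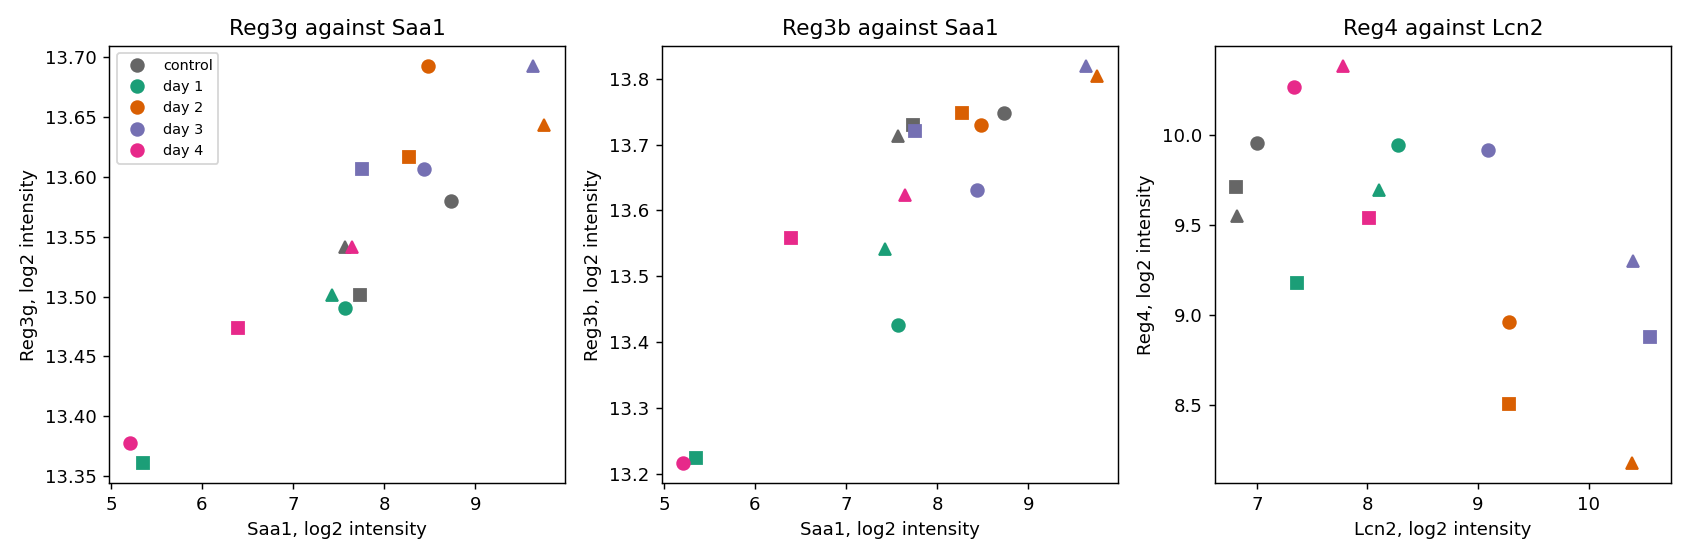
Log2 intensity of pairs of members over the 15 arrays, with Reg3g and Reg3b against Saa1 and Reg4 against Lcn2, and each point 1 array marked by group. The 2 arrays with Saa1 inside the background band also have low Reg3b, and r is 0.92, 0.89 and -0.65 in the 3 panels.

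Of 284 genes with an SD of at least 0.5 over the arrays, those with the pattern most like Lcn2 were C4bp, Fabp5, Psg18 and Aqp4 (r = 0.93, 0.93, 0.93 and 0.92). Those most like Reg3a were Fut2, Stom, Il18 and Ly6g2 (0.76, 0.74, 0.73 and 0.71), and those most like Saa1 were Slc6a14, Tgm2, Stom and Saa3 (0.83, 0.78, 0.77 and 0.74). Those most like Reg4 were Mptx1, Hsd3b3, Pnliprp2 and Clps (0.77, 0.68, 0.66 and 0.65). With Spearman's rho, 2, 1, 1 and 2 of the 4 genes stayed the same for Lcn2, Reg3a, Saa1 and Reg4.

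None of 10 further members of the Reg, Saa, resistin and lipocalin families was called on any day. Saa3, an acute-phase relative of Saa1, had differences from control of 0.27, 0.79, 0.99 and 0.01 (limma adjusted p = 0.769, 0.217, 0.0793 and 0.995). Saa2 had differences of -0.34, 0.15, 0.12 and -0.20. Of 26 other epithelial defence genes, 1, 3, 2 and 1 were called higher and 2, 1, 0 and 0 lower on days 1, 2, 3 and 4. Among all genes 2, 1.52, 1.72 and 0.818% were called higher and 1.94, 1.05, 1.24 and 0.0903% lower. Pglyrp1, which encodes a peptidoglycan recognition protein, rose by 1.49 on day 1 and by 0.95 on day 4 (limma adjusted p = 8.385e-07 and 0.000123). Hamp, which encodes the iron hormone hepcidin, rose by 2.18 on day 2 and 2.45 on day 3 and had 0.18 on day 1 and 0.49 on day 4. Il18, an epithelial cytokine gene, fell by 1.69 on day 1 on the log2 scale (limma adjusted p = 0.00299). Ubd was also among those called higher on day 2 (1.49, limma adjusted p = 0.0373), a call lost without 6 single arrays.

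A list of 8 genes held receptors of lipocalin 2 together with general iron genes, which do not act on lipocalin 2 itself. Tfrc, the transferrin receptor gene, rose by 1.13, 1.63 and 1.16 on days 2, 3 and 4 (limma adjusted p = 0.00596, 0.0004004 and 0.00977), and the day 4 call was lost without day 4 replicate 2 or control replicate 1. Slc40a1, the gene of the iron exporter ferroportin, fell by 2.10 on day 1 on the log2 scale (limma adjusted p = 0.0056), and its calls on days 2, 3 and 4 were lost without 5, 5 and 9 single arrays. The lipocalin 2 receptor genes Slc22a17 and Lrp2 were not called on any day.

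**Figure D4:**
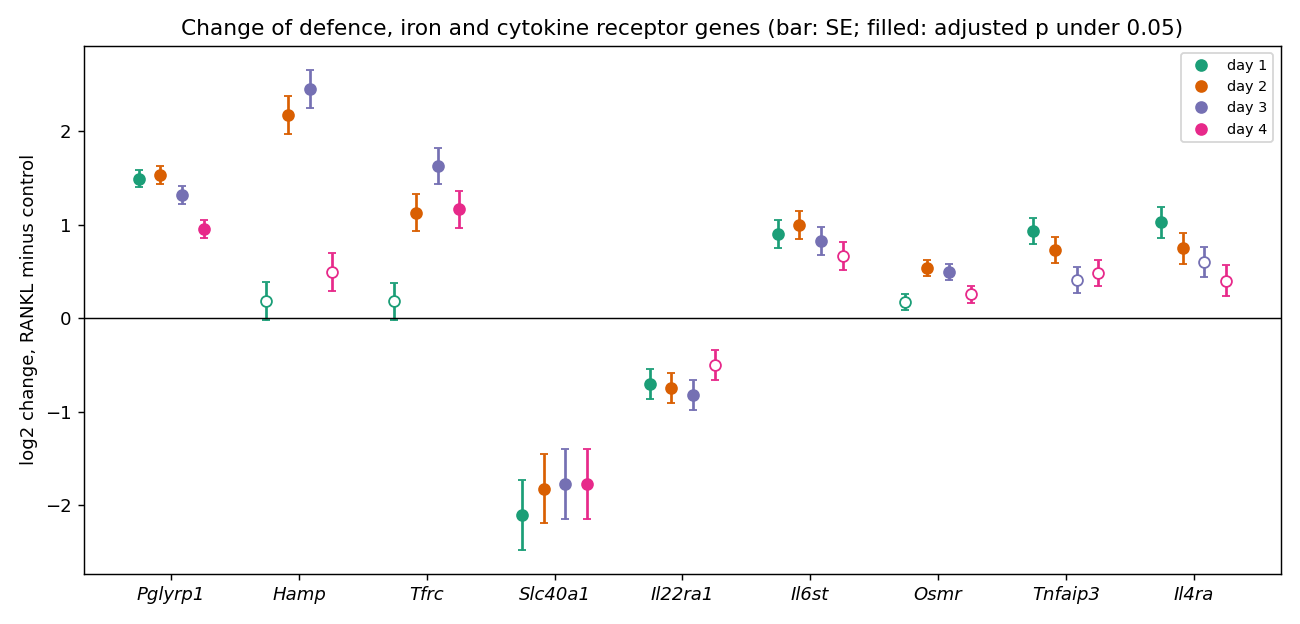
Log2 change in intensity, RANKL minus control (vertical axis), of 9 related defence, iron and cytokine-pathway genes on days 1, 2, 3 and 4, with bars of 1 SE and filled points where the limma adjusted p was under 0.05. Pglyrp1 is filled on all 4 days and Hamp on days 2 and 3, the days on which Lcn2 was called.

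Of 16 measured genes of the interleukin 22 and STAT3 pathway, 2 were called higher and 1 lower on each of days 1, 2 and 3, and none on day 4. Il6st, which encodes the shared receptor subunit gp130, rose by 0.90, 1.00 and 0.83 on days 1, 2 and 3. With median centring its calls on days 1 and 3 were lost (limma adjusted p = 0.0843 and 0.0666 at the highest), the day 1 call also in a fit of the compared groups alone. Il22ra1, the epithelial interleukin 22 receptor gene, fell by 0.70, 0.74 and 0.82 on the log2 scale on these days, with calls lost without 4, 5 and 3 single arrays. Bcl3, an IkB-family regulator, rose by 0.74 on day 1 (limma adjusted p = 0.0671 with median centring), and Osmr, the oncostatin M receptor gene, rose by 0.54 on day 2 and 0.49 on day 3 (not called without day 3 replicate 3). Stat3, Socs3 and Fut2 were not called, and Il22 was not measured.

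Of 18 genes of the interleukin 17 and IkB-zeta pathway, 2, 1, 0 and 0 were called higher and 0, 0, 1 and 0 lower. Tnfaip3, an inhibitor of NF-kB signalling, rose by 0.93 on day 1 and 0.73 on day 2 (not called without day 2 replicate 1 or control replicate 1). Il1rn, the interleukin 1 receptor antagonist gene, rose by 0.79 on day 1 (limma adjusted p = 0.0527 with median centring). Il17rc, an interleukin 17 receptor subunit gene, fell by 0.34 on day 3 on the log2 scale, a call lost without any of 5 single arrays. Nfkbiz, Cebpb and Cebpd were not called. Of 8 type 2 cytokine pathway genes, Il4ra, the interleukin 4 receptor gene, rose by 1.02 on day 1 and 0.75 on day 2 (the second call lost without 5 single arrays), and Il13ra1, an interleukin 13 receptor gene, fell by 0.41 on day 1 on the log2 scale (lost without 4 single arrays). Of 13 microbial sensing genes none was called higher, and Tlr3 and Irak2 on day 1 and Ticam1 on day 3 were called lower, calls lost without 2, 13 and 4 single arrays. Among all genes 3.94, 2.57, 2.96 and 0.908% were called on the 4 days.

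Other cell types were read by lists as well. No marker of lymphocytes (10 measured) or of pancreatic acinar cells (9 measured) was called on any day. Among 10 enterocyte markers Apoa4, an apolipoprotein gene, was higher on day 2 by 0.71, a call lost without 5 single arrays. Of 14 genes with known levels along the intestine, none was called higher and 1, 1, 2 and 1 were called lower on days 1, 2, 3 and 4. Of all genes 1.94, 1.05, 1.24 and 0.0903% were called lower on these days. Slc40a1, already described with the iron genes, was called on each day. Cubn was the other gene called on day 3, where it fell by 0.78 on the log2 scale, a call lost without 3 single arrays.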

How the data were processed

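RNA of 15 samples was labelled with biotin using the WT Terminal Labeling Kit, per the labels' protocols. The authors deposited linear intensities of 28853 probe sets per array. The genome build named is mm9, per the submitters' processing notes, while how the probes were summarised and normalized is not given in the sources used here. Intensities were taken to log2 with an offset of 0. Array medians spanned 0.18, over a limit of 0.1, so the arrays were quantile normalized. Each gene was read from its brightest probe set with 1 symbol (21789 of 28853), and probe sets with several symbols (1621) or none (5443) were left out. The 15 arrays entered a single linear model of 5 group means in limma 3.58.1 in R 4.3.3 (two-sided, 10 residual and 3.49 prior degrees of freedom). P-values were adjusted by Benjamini-Hochberg over 19938 genes within each comparison, and called under 0.05. The number of arrays limits the precision. The method was tested on simulated data.

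Named were all 8 members, up to 4 called genes of each list with the largest change, and the 4 genes most correlated with each member called or spanning over 1.5. The M cell markers were given as counts and sums and were not named. The members and lists were chosen with earlier results of these data known. The alternatives changed the scaling, the offset (to 16), the choice of probe set, the variance estimate, the genes (without the dimmest 40%), the arrays (each left out in turn, or just the compared groups) and the model (a replicate block). Promoter windows and coordinates come from RefSeq, build GRCm38.p6, which is not the build of the files.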

Additional observations from a re-analysis of the deposited data

Results flagged for a closer look

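A total of 3 differences between RANKL days passed the test of the difference itself. Lcn2 was higher on day 3 than on day 1 by 2.10 on the log2 scale (limma adjusted p = 0.0322), with adjusted p-values up to 0.307 under the alternatives. Lcn2 was lower on day 4 than on day 2, with a difference of -1.94 (limma adjusted p = 0.0313), with adjusted p-values up to 0.194 under the alternatives. Reg4 was higher on day 4 than on day 2 by 1.51 (limma adjusted p = 0.0297), with adjusted p-values up to 0.171 under the alternatives.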

How the results depend on the processing

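The 80 changes of members were recomputed 1972 times in all, and 36 values lost a call and 23 gained one. The sign was kept in 1940 and was the other in 32, over 17 changes, all of them uncalled (lowest adjusted p = 0.714); 3 of these (Retnlb without control replicate 1) moved by more than the spread within groups, and 0 called values changed sign. On day 1 against control no member was called, but 2 were with weights per array (Lcn2, adjusted p = 0.0384, and Reg1, 0.0183) and 2 with the replicate block (Reg1, 0.0256, and Reg3a, 0.0390), and 0 to 1 with single arrays left out. On day 2 the count of 2 became 1, Reg4 being lost, with the values as deposited, median centring, an offset of 16, a trended and robust prior or the ordinary t statistic, and was 1 to 2 with single arrays left out. The counts of 1, 0 and 1 on day 3, day 4 and the days together did not move.

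Over all genes the counts called ranged from 269 to 1517 on day 1, 283 to 930 on day 2, 236 to 1322 on day 3, 95 to 336 on day 4 and 380 to 1485 for the days together, beside 785, 513, 590, 181 and 793. Counts by setting were 480, 311, 257 and 412 with median centring (days 1, 2, 3 and together), 1517, 930, 1322 and 307 with weights per array (days 1 to 4), 320, 324, 107 and 514 with the ordinary t statistic (days 2, 3, 4 and together), 378 as deposited (day 3) and 269 in a fit of only the groups compared (day 1). With single arrays left out they were 445 to 1002, 283 to 717, 236 to 1188, 95 to 336 and 380 to 1485. A fit of only the groups compared could not be made for the days together, which use all groups. The causes were not tested.

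The main model did not pair samples by replicate number, so its p-values leave any structure shared by that number out of account. Same-numbered arrays did deviate together in part: 19 of 30 same-numbered pairs of deviations correlated above 0.1 (-0.20 to 0.50). Of 15 arrays 12 correlated best with an array of their own number, and what these arrays share was not tested. Between day 2 and day 1, day 2 and control, and day 3 and control all 3 same-numbered pairs were above 0.1. The block called Reg3a and Reg4 between day 2 and day 1 (adjusted p = 0.0365 and 0.0464) and left the members' calls on days 2 and 3 against control as they were. With the replicate block 1052, 635, 712, 216 and 1008 genes were called. Of 62 calls of list genes, 38 held without each array in turn and 33 under every alternative. The few arrays per group and levels near background (Retnlb, some Saa1 values) limit what small changes can show.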
